A study of Drosophila melanogaster
Schmidtea mediterranea with 2 samples.

Results

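H3K4me3 Mnase-ChIP-seq was performed on a pool of X1 cells and Drosophila S2 cells, and the broad H3K4me3 domains described here are the peaks of that experiment that extend over at least 2000 bp. These domains were chosen by their width alone, as the end minus the start of each listed peak, and 575 of 14553 peaks met this rule. X1 cells are Hoechst-stained planarian cells from the FACS gate that holds dividing stem cells of untreated, asexual Schmidtea mediterranea (strain CIW4), and S2 cells are a cultured Drosophila line that was added in excess to 800 K X1 cells. There was 1 H3K4me3 ChIP library and 1 input library, with no second condition, so there is no replicate error and no difference between conditions was tested. Peaks of a single library are not replicates, and the 95% intervals given for shares (Wilson) and medians (order statistics) cover counting error only. The peak list holds positions without a height, an enrichment or read numbers, so the depth behind a domain is unknown. All listed scaffolds belong to the planarian assembly, and the list holds no gene names against which the stem cell label could be checked.

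Trimethylation of histone H3 at lysine 4 is placed by enzymes of the Set1 and MLL families and is known as a mark of the start of transcribed genes, where it usually covers a few nucleosomes. At some genes the mark continues into the gene body and forms a broad domain. In mammalian cells such domains are known at genes of cell identity and at tumor suppressor genes. Micrococcal nuclease digests the linker DNA between nucleosomes, so in Mnase-ChIP a wide peak is built from single marked nucleosomes and not from long sheared fragments.

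The broad domains made up 3.95% of the listed peaks (95% interval 3.65% to 4.28%) and held 10.4% of the sequence covered by peaks, or 1.46 of 13.97 Mb. Their median width was 2340 bp, and the middle 50% were between 2130 and 2756 bp wide. Most members lay close to the limit of the rule, with 234 between 2 and 2.25 kb, 125 between 2.25 and 2.5 kb and 125 between 2.5 and 3 kb. Beyond 3 kb there were 72 domains up to 4 kb and 19 of at least 4 kb. No gap in the widths separated the members from the other peaks, since 110 peaks had widths from 2000 to under 2100 bp and 138 peaks had widths from 1900 to under 2000 bp. The narrowest members were a domain of 2000 bp on scaffold 116 (positions 296812-298811) and 2 domains of 2001 bp, on scaffold 29 (246655-248655) and scaffold 95 (440525-442525). The widest peaks left out were on scaffold 205 (841059-843057), 1 bp short of the limit, and on scaffolds 47 (4115868-4117865) and 104 (1916133-1918130), each 2 bp short. Positions are counted from 1 on the dd_Smes_g4 scaffolds of the Rink lab assembly.

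**Figure D1:**
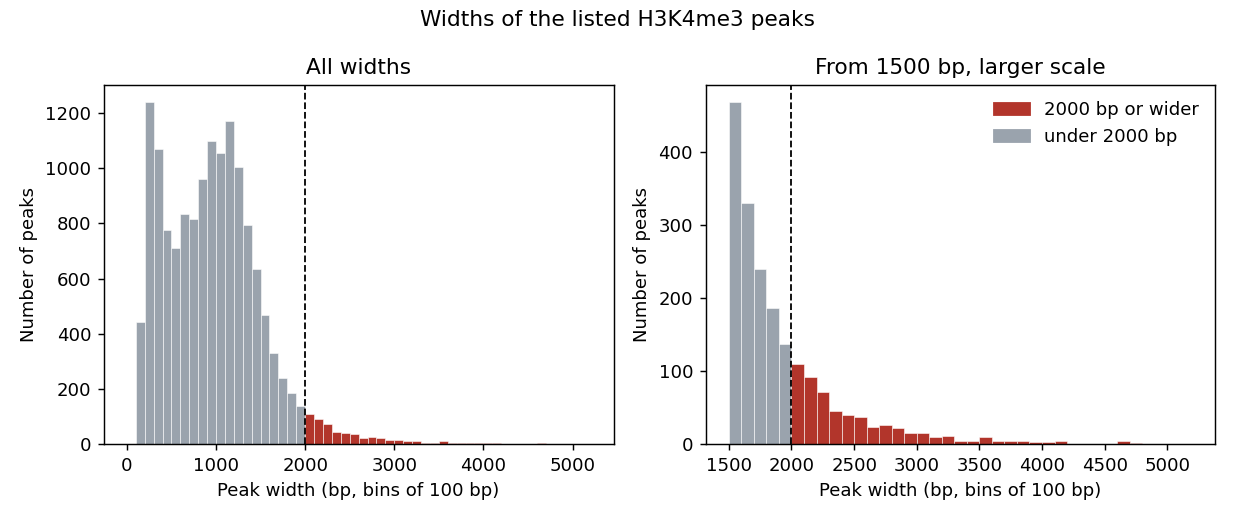
Number of listed peaks by width in bins of 100 bp, for all peaks (left) and from 1500 bp on a larger scale (right), with the 575 broad domains in red and a dashed line at 2000 bp. The counts fall across the line without a step, from 138 peaks in the last bin below it to 110 in the first bin above it.

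The 5 widest domains differed in what lay around them. The widest, of 5196 bp on scaffold 149 (1396302-1401497), had a peak of 371 bp at a distance of 237 bp on one side and no peak for 111 kb on the other, and it was the only broad domain among the 24 peaks of its scaffold. The domain of 4789 bp on scaffold 76 (2511788-2516576) lay in a crowded stretch, described further on, and peaks covered 30.2% of the 10 kb on either side of it. The domain of 4732 bp on scaffold 228 (387986-392717) had a peak of 1731 bp at a distance of 485 bp on one side and none for 59.5 kb on the other. The domain of 4691 bp on scaffold 35 (2025456-2030146) had a peak of 193 bp at 2058 bp before it and none for 48.1 kb after it. The domain of 4689 bp on scaffold 1 (9889375-9894063) stood alone, with its neighbours 90.3 kb and 44.6 kb away.

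A gene name can be given to 4 broad domains whose loci the study draws, and these names serve as labels without a test. smedwi-1, which encodes a PIWI protein and is the standard marker gene of planarian stem cells, lies under a domain of 2857 bp on scaffold 25 (3564943-3567799), at rank 113 of the 575. Its neighbours were 77.2 kb before and 24.3 kb after it, so that no other peak lay in the 10 kb on either side. rb, the homolog of the retinoblastoma protein that restrains entry into the cell cycle in mammals, lies under a domain of 2382 bp on scaffold 45 (2253440-2255821), at rank 268. It stood as clear of other peaks as smedwi-1, with 96.4 kb before and 21.8 kb after it. p53, the homolog of the mammalian transcription factor that responds to DNA damage, lies under a domain of 2050 bp on scaffold 8 (825906-827955), at rank 515 and therefore close to the limit of the rule. A peak of 368 bp followed this domain at 251 bp, and the peak before it was 108 kb away. cbp-3, a homolog of the histone acetyltransferases CBP and p300, lies under the 4732 bp domain of scaffold 228 at rank 3. The nearest other broad domain was 653 kb away from smedwi-1, 737 kb from p53, 677 kb from rb and 309 kb from cbp-3. None of the 4 was therefore near a second broad domain.

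Broad domains were spread over many scaffolds. They lay on 205 of the 449 scaffolds that carry a peak, or 45.7% (41.1% to 50.3%), and 74 of these scaffolds held 1 domain, 50 held 2, 27 held 3, 20 held 4, 11 held 5 and 23 held 6 or more. The 244 scaffolds without a domain were mostly small, with a median of 4 peaks against 41, and together they held 2108 peaks, or 14.5% of the list. Among the 260 scaffolds with at least 10 peaks, 190 had a broad domain. Scaffold 1 held 22 domains among 425 peaks (5.18%), scaffold 3 held 16 among 247 (6.48%) and scaffold 18 held 10 among 259 (3.86%). The 12 scaffolds with at least 7 domains held 20.7% of all domains and 16.6% of all peaks. Across the 449 scaffolds the number of domains rose with the number of peaks (Pearson r = 0.857, Spearman rho = 0.783), and r was 0.823 without scaffolds 1 and 3. Both numbers come from the same list and grow with the length of the scaffold, so this is a description without a test.

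**Figure D2:**
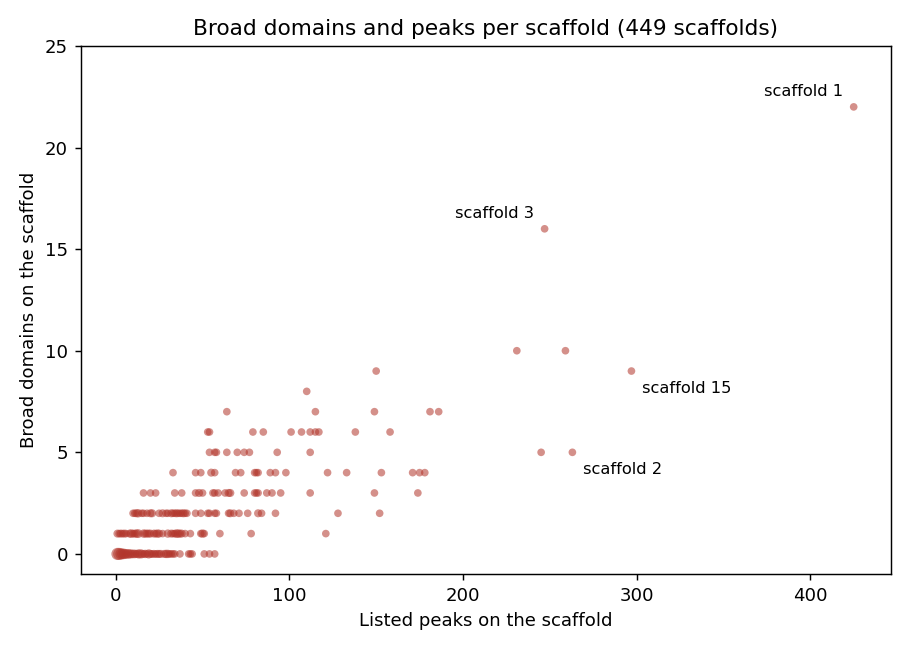
Number of broad domains against the number of listed peaks, with a point per scaffold and larger points where several scaffolds coincide. Scaffold 1, with 425 peaks and 22 domains, and scaffold 3, with 247 peaks and 16 domains, lie at the upper right, and most scaffolds hold fewer than 50 peaks.

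On the 96 scaffolds with at least 50 peaks, the share of peaks that were broad had a median of 3.96% and quartiles of 2.63% and 5.42%. Its highest values were 11.3% on scaffold 87 (6 of 53 peaks, 95% interval 5.29% to 22.6%), 11.1% on scaffold 95 (6 of 54, 5.19% to 22.2%) and 10.9% on scaffold 67 (7 of 64, 5.40% to 20.9%). On 3 of these scaffolds there was no broad domain, scaffold 108 with 57 peaks, scaffold 85 with 51 and scaffold 102 with 54. Taking 3 counts of the total as the limit of a count of 0, these scaffolds allow shares of 5.26%, 5.88% and 5.56%, and the upper Wilson bounds are 6.31%, 7.005% and 6.64%, all above the median of 3.96%. The intervals of scaffolds 87, 95 and 67 start above the median of 3.96%, but these scaffolds were picked for their high shares and got no test. On these 96 scaffolds together, there were 0.823 broad domains per Mb between the first and last listed positions, or 1 per 1215 kb.

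To describe their surroundings, the domains were compared with the other 11870 peaks on the 205 scaffolds that carry a domain, and with the 5201 of these that were nearest in width, from 1 kb to the limit of the rule (here 1-2 kb peaks). The median distance from a broad domain to the nearest peak of any width, edge to edge, was 18.7 kb (15.8 to 21.2 kb, n = 573), while 2 domains were the only peak on their scaffold. It was 16.8 kb (16.3 to 17.3 kb) for the other peaks, a ratio of 1.11 with an interval of 0.910 to 1.30 that includes 1. For the 1-2 kb peaks the median was 22.4 kb (21.4 to 23.2 kb), and the ratio was 0.838 (0.678 to 0.992). For the rest of the other peaks, those under 1 kb, the median was 12.33 kb (11.62 to 12.95 kb). A typical broad domain was thus farther from its nearest peak than peaks under 1 kb were. It was somewhat nearer to its nearest peak than 1-2 kb peaks were. The median of all other peaks pools these classes, which lie on opposite sides of the domains. Where the nearest peak was more than 1 kb away, the medians were 26.8 kb for 437 domains and 26.1 kb for 1-2 kb peaks.

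The medians hide a wide and uneven spread among the domains. The nearest peak was within 254 bp for the closest 10% of them, within 1587 bp for the closest 25% and more than 38.8 kb away for the most distant 25%. For 89 domains, or 15.5%, no peak lay within 50 kb. Of the 548 domains with a neighbour on each side, 75 had both neighbours more than 50 kb away, or 13.7%, against 13.7% of the other peaks and 17.1% of the 1-2 kb peaks. The domain farthest from any peak was one of 2073 bp on scaffold 234 (693356-695428), whose nearest peak was 328 kb away. Within the members, width and distance to the nearest peak showed next to no relation (Spearman rho = 0.0046 over 573 domains).

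**Figure D3:**
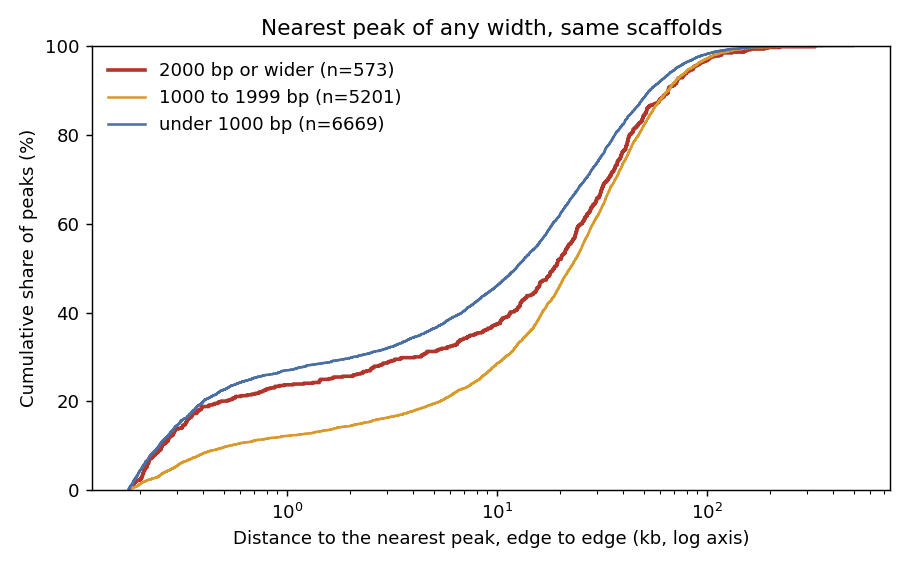
Cumulative share of peaks against the distance to the nearest peak (log axis, kb) on the scaffolds that carry a broad domain, for peaks of 2000 bp or more, of 1000 bp up to that limit and of under 1000 bp. The curve of the broad domains reaches 23.7% at 1 kb, near that of the narrowest class (27.0%) and above that of the 1-2 kb peaks (12.2%), and it moves toward the curve of the 1-2 kb peaks at distances over 10 kb.

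The broad domains differed from the 1-2 kb peaks at short range. Another peak lay within 500 bp of 115 of 573 domains, or 20.1% (17.0% to 23.5%), against 504 of 5201 1-2 kb peaks, or 9.69% (8.92% to 10.5%). The difference was 10.4 percentage points (7.19 to 13.9). Against all other peaks on these scaffolds (17.0%, 16.3% to 17.7%) it was 3.10 points with an interval of -0.048 to 6.64, and 22.6% of the peaks under 1 kb also had a close neighbour. The share with a close neighbour therefore did not follow width in one direction. It was 31.6% for peaks from 175 to under 500 bp, 15.8% from 0.5 to 1 kb, 9.13% from 1 to 1.25 kb, 9.25% from 1.25 to 1.5 kb and 11.4% from 1.5 to 2 kb. Among the domains it was 16.8% (12.5% to 22.2%) from 2 to 2.25 kb, 22.4% (16.0% to 30.5%) from 2.25 to 2.5 kb, 22.4% (16.0% to 30.5%) from 2.5 to 3 kb and 22.0% (14.7% to 31.5%) beyond 3 kb. The intervals of these 4 width classes of domains overlap. On the 12 scaffolds with at least 7 domains the share was higher for domains than for 1-2 kb peaks on 11, for example 6 of 22 domains against 27 of 184 peaks on scaffold 1 and 4 of 16 against 9 of 107 on scaffold 3, and lower on scaffold 4 (1 of 10 against 11 of 103). Several of the 11 rest on 1 or 2 close domains. Scaffolds 10 and 17 each had 1 of 7 (14.3%), against 10.3% and 11.5% of their 1-2 kb peaks. A single close domain could thus decide the direction on such a scaffold.

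**Figure D4:**
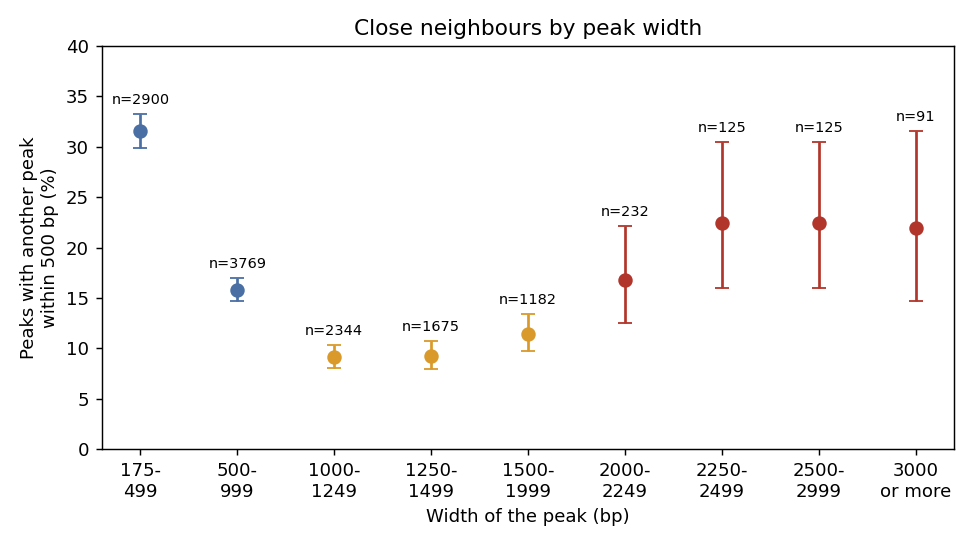
Share of peaks with another peak within 500 bp by the width of the peak, on scaffolds that carry a broad domain; points give the share, bars the 95% Wilson interval and n the number of peaks. The share falls from 31.6% in the narrowest class to 9.13% at 1 to 1.25 kb and lies between 16.8% and 22.4% in the 4 classes of broad domains, in red.

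Most of the peaks close to broad domains were narrow. On 119 sides of a domain a peak lay within 500 bp, 60 times before and 59 times after it in scaffold order, and 111 domains had such a companion on one side while 4 had it on both. The median width of these companions was 374 bp (334 to 491 bp), and 71 of the 119, or 59.7% (50.7% to 68.0%), were under 500 bp wide. The other 48 were wider, 27 of them at least 1 kb, and 8 were broad domains themselves. The close neighbours of 1-2 kb peaks had a median width of 498 bp (445 to 564 bp), with 50.5% (46.2% to 54.7%) under 500 bp, and those of peaks under 1 kb had one of 648 bp (602 to 681 bp), with 39.6% (37.2% to 42.0%) under 500 bp. On the 1002 sides of domains without a close neighbour, the adjacent peak had a median width of 983 bp, and 21.7% of these peaks were under 500 bp. At 1-2 kb peaks these values were 995 bp and 20.6%, so narrower neighbours at short range than beyond it were found in both classes. Taking all adjacent peaks at any distance, the median width was 949 bp beside domains and 953 bp beside other peaks (ratio 0.996, 0.946 to 1.04). The gaps to the companions were short, with a median of 256 bp (237 to 277 bp) and quartiles of 215 and 329 bp, against 286 bp (274 to 296 bp) at 1-2 kb peaks. The shortest gap between any peaks of the list was 176 bp.

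Other peaks covered more of the sequence beside broad domains than beside 1-2 kb peaks over the first 5 kb. In the first 0.5 kb outside a domain, other peaks covered 4.61% of the sequence, and they covered 6.504% from 0.5 to 1 kb, 3.75% from 1 to 2 kb and 1.801% from 2 to 5 kb. Around 1-2 kb peaks the same values were 1.995%, 3.75%, 2.30% and 1.23%. Peaks under 1 kb had higher values than domains in each of these bins, at 5.09%, 9.47%, 5.60% and 2.23%. All other peaks together had 3.74%, 6.97%, 4.15% and 1.794%, so the higher cover beside domains held against 1-2 kb peaks and not in general. Farther out domains and 1-2 kb peaks were alike, with 1.23% against 1.15% from 5 to 10 kb. They had 1.49% against 1.504% from 10 to 20 kb and 1.85% against 1.97% from 20 to 50 kb. Over 10 kb on either side the mean covered share was 2.08% ± 0.17 (SEM over domains) around domains and 2.19% ± 0.037 around the other peaks, a difference of -0.108 points (-0.445 to 0.229). Against 1-2 kb peaks (1.47% ± 0.046) the difference was 0.613 points (0.271 to 0.954), while peaks under 1 kb had a higher mean than domains, of 2.75% ± 0.054. These SEM and intervals treat the peaks of 1 library as independent, although flanks of nearby peaks can overlap. They hold no replicate error. Flanks were cut at the first and last listed positions of a scaffold, since scaffold lengths are not part of the list.

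Broad domains were far from each other, as the other peaks were from the nearest domain. For the 501 domains with another domain on the same scaffold, the median distance to it was 323 kb (279 to 361 kb), with quartiles of 140 and 870 kb. The other peaks on all 205 scaffolds with a domain were 403 kb (392 to 414 kb) from the nearest domain, a ratio of 0.802 (0.674 to 0.921), and with both classes taken only from scaffolds with at least 2 domains the ratio was 0.821 (0.686 to 0.944). When the other peaks were weighted to the same mix of scaffolds as the domains, an alternative chosen after seeing the data, the ratio was 1.01. In the same way, 64 of 573 domains had a broad domain as the next listed peak on either side, or 11.2% (8.84% to 14.0%), against 8.68% (8.18% to 9.20%) of the other peaks. With the same weighting this difference of 2.49 points became -0.525 points, and with a limit of 2500 bp it was -2.46 points. A domain cannot neighbour itself, whereas another peak can lie beside any domain of its scaffold, and how far this moves the comparison was not tested. Neither difference thus kept its direction with the weighting by scaffold, but the weighted values carry no interval and lie near no difference. The difference in adjacent domains also changed sign with the limit of 2500 bp, with an interval of -3.665 to 0.38 points.

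Directly adjacent domains formed 33 pairs with a median gap of 37.4 kb and quartiles of 15.3 and 110 kb. Only 4 of these gaps were up to 500 bp. On scaffold 8, a domain of 3172 bp (1564860-1568031) was followed after 180 bp by one of 2311 bp (1568212-1570522), the closest pair of domains. On scaffold 1, domains of 2450 bp (1684944-1687393) and 2298 bp (1687599-1689896) were 205 bp apart. On scaffold 87, domains of 2274 bp (2287824-2290097) and 2289 bp (2290319-2292607) were 221 bp apart. On scaffold 56, domains of 2114 bp (369862-371975) and 2745 bp (372290-375034) were 314 bp apart and had narrow companions of 419 bp at 179 bp before and 363 bp at 209 bp after the pair. A further 3 pairs lay between 500 bp and 10 kb apart, at 1426 bp on scaffold 2, 3471 bp on scaffold 3 and 5798 bp on scaffold 28.

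Of the 575 domains, 511 had no domain as direct neighbour, 60 stood in 30 runs of 2 and 4 stood in a single run. This longest run, on scaffold 87 from 2174235 to 2292607, held domains of 2276, 2949, 2274 and 2289 bp with gaps of 73.4 kb, 35.0 kb and 221 bp and spanned 118 kb. Scaffold 87 is also the scaffold with the highest share of broad peaks given above. The stretch around the 4789 bp domain of scaffold 76 was chosen for description after its values were seen. It held 6 peaks in 17.2 kb, of 2951, 375, 1305, 4789, 189 and 1221 bp, which covered 63.1% of it. Its 2 broad domains were 6732 bp apart with 2 narrower peaks between them, so they do not count as adjacent.

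**Figure D5:**
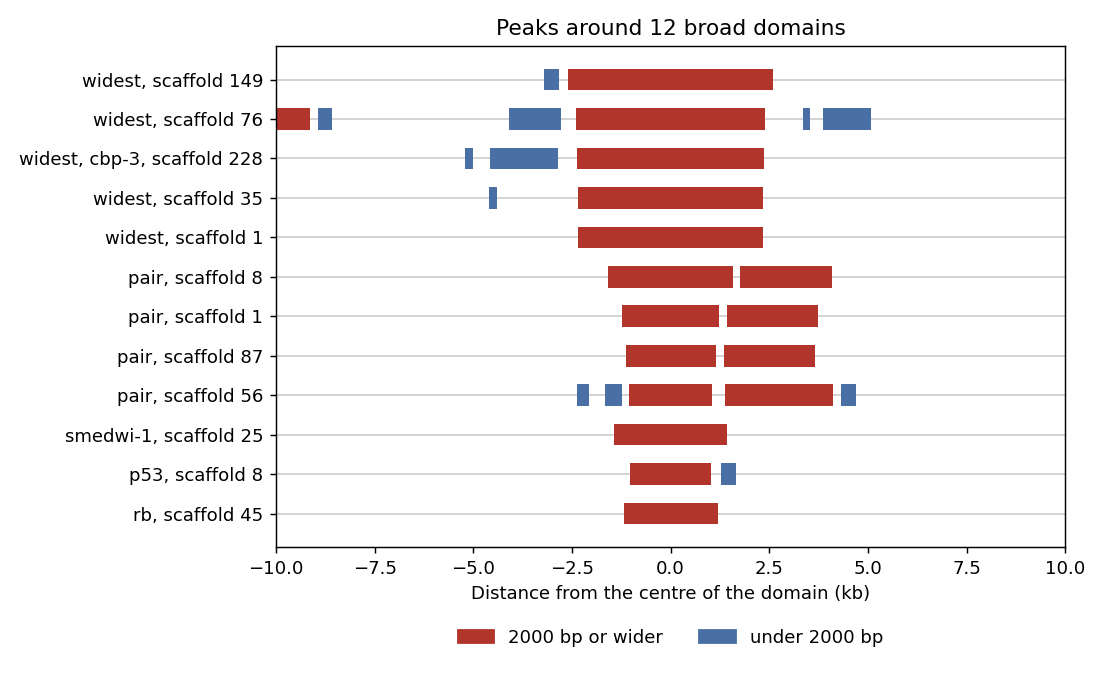
Peaks within 10 kb of the centre of 12 broad domains (distance in kb), for the 5 widest domains, the first domain of each of the 4 pairs up to 500 bp apart, and the domains labelled smedwi-1, p53 and rb; cbp-3 is among the widest. Red bars are peaks of 2000 bp or more and blue bars are narrower peaks, drawn to scale; smedwi-1, rb and the widest domain of scaffold 1 have no other peak in view, whereas the domain of scaffold 76 has 5.

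Since 115 domains had a peak within 500 bp, the extent of marked sequence at them depends on whether such gaps are bridged. When peaks up to 500 bp apart were joined, the 575 domains fell into 571 regions, of which 460 held a single peak, 100 held 2, 7 held 3 and 4 held between 4 and 6. Their median width was then 2463 bp, and the number wider than 4 kb rose from 19 to 44. The widest joined region spanned 7567 bp (385151-392717) on scaffold 228, with 3 peaks that covered 6655 bp of it. It held the domain labelled cbp-3, a label that was looked up among the widest domains only. A region of 7435 bp on scaffold 1 (10310638-10318072) held 6 peaks, a domain of 2079 bp at its start, a peak of 1778 bp at its end and peaks of 425, 550, 755 and 452 bp between them, with all 5 gaps between 205 and 318 bp. The pair on scaffold 56 became a region of 7061 bp (368546-375606) with 5 peaks. Joining also brought 354 regions over the limit that held no peak of 2000 bp as listed.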

How the data were processed

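Per the labels and the study's methods, X1 cells and S2 cells were pooled, digested with micrococcal nuclease and precipitated with an antibody to H3K4me3, and reads were aligned by the authors to the Rink lab version 4 S. mediterranea genome with Bowtie2 and called with MACS2. Tool versions, MACS2 options and the use of the input library are not given in the sources used here. The deposited list of 14553 peaks gives scaffold, start and end in bp, with 0 duplicates and 0 overlaps.

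Widths are end minus start, with starts read as counted from 0. Distances run edge to edge within a scaffold. Python 3.11.15, numpy 2.4.6, pandas 2.3.3, scipy 1.17.1 and matplotlib 3.10.9 were used. Intervals are Wilson intervals for shares, Newcombe intervals for their differences and order statistics for medians. A ratio of medians was given the quotients of opposite bounds. The interval of the difference in flank cover is 1.96 standard errors. On a made-up list of known layout, distances, flank cover and joining were recovered with 0 differences.

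The domains, loci and comparisons were chosen with earlier results of these data known. Domains named are the 5 widest, those next to the limit, the closest pair, the longest run and the domain farthest from any peak. The scaffold with most domains was also named. The 4 loci were placed from the study's browser drawings and an account of the whole series. For smedwi-1, p53 and rb the scaffold and position mark were used. The position of cbp-3 was looked up among the 5 widest domains only, without a scaffold mark. Alternatives were other width limits, joined peaks, other comparison classes and scaffold sets, and a weighting by scaffold. The other pairs and stretches named were chosen after their values were seen. Genome sequence and gene models were not used here.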

Additional observations from a re-analysis of the deposited data

How the results depend on the processing

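Of 81 alternative values for 9 results, 59 stayed within the counting interval (counts within 1.5 times), 19 moved outside it and 3 reversed a difference whose interval had excluded no difference. Counting also differences whose interval included none, 11 alternatives turned a direction, 4 of them in the width ratio of adjacent peaks (1.005 to 1.017). Of the alternatives, 75 were set at the start and 6 were chosen after seeing the data. Some of the 59 were fixed by construction and do not speak for stability. Joining sets the difference in close neighbours to 0, and leaving out peaks under 200 bp cannot change the number of domains.

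The number of domains was 216 with a limit of 2500 bp, 1461 for the widest 10% of peaks (from 1602 bp), and 925 and 1082 after bridging gaps of up to 500 and 1000 bp, against 575. In the same order, the share of covered sequence was 4.77%, 21.6%, 17.2% and 20.4%, and the share of scaffolds with a domain was 29.2%, 60.6%, 54.1% and 57.5%. On scaffolds with at least 10 peaks, 73.1% carried a domain. These shifts follow from the construction of the alternatives.

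Against 1-2 kb peaks, the ratio of median distances to the nearest peak was 0.838, the difference in close neighbours 10.4 points and that in flank cover 0.613 points. The difference in close neighbours was -2.57 points against peaks under 1 kb and -2.17 points for the widest 10%, and joining sets it to 0. The ratio of distances to the nearest domain was 0.960 for the widest 10% and 1.01 with other peaks weighted to the scaffold mix of the domains. That weighting gave -0.525 points for adjacent domains, and a limit of 2500 bp gave -2.46 points. The cause of the last was not tested.

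No paired analysis was possible because the series has 1 ChIP library, which also leaves no replicate to omit. Read depth is unknown, so whether a weak neighbour of a domain was missed cannot be judged.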

Other observations

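Broad domains lay at the end of a scaffold's list of peaks, as the first or last listed peak, in 27 of 575 cases (4.70%), against 381 of 11870 other peaks on the same scaffolds (3.21%) and 3.46% of 1-2 kb peaks. The 27 include 2 domains with no other peak on the scaffold, one of 2113 bp on scaffold 364 (97251-99363) and one of 2047 bp on scaffold 410 (16840-18886). These 2 scaffolds enter the comparison only through their domain and add no other peak to it. No interval was computed for the shares at the end of a list, and their difference was not tested.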
